A study of Mus musculus with 16 samples.

Results

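Cytosolic ribosomal protein genes were followed in quadriceps muscle of adult FVB/n mice, in 4 groups of 4 arrays. The HSALR transgene is a human skeletal actin gene whose message holds a long CUG repeat, and the mice are used as a model of myotonic dystrophy. HSALR mice were studied after antisense oligonucleotide (ASO) 445236, after ASO 190401 or after saline, and were set against wild-type (WT) mice given saline. All injections were subcutaneous and were repeated biweekly for 4 weeks. Both oligonucleotides are known to be directed at the transgene's RNA. The repeat RNA comes from the transgene in skeletal muscle fibres, so the model holds the muscle part of the disease only, and the labels name no founder line. Total RNA of whole muscle was labelled from 100 ng and hybridised to Illumina bead arrays. A gene was counted as a member if its symbol was Rpl or Rps followed by a number, or Rplp0, Rplp1, Rplp2 or Rpsa; ribosomal S6 kinases and pseudogenes were left out. The array named 64 such genes among 16593, and 58 had a probe above background on at least 4 arrays, out of 8725 genes tested. Of the 58, 35 belong to the large subunit and 23 to the small subunit, and 5 are paralog genes (Rpl3l, Rpl7l1, Rpl22l1, Rps27l and Rpl36al).

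The cytosolic ribosome joins a small subunit, which reads the message, to a large subunit, which forms the peptide bond. Each ribosomal protein is needed in fixed proportion to the ribosomal RNA, and the messages of most of them open with a stretch of pyrimidines, the terminal oligopyrimidine tract, through which mTOR signalling controls their translation. Array levels of these messages say nothing about that translational step. Skeletal muscle also uses paralog proteins, among them Rpl3l, which takes the place of Rpl3 in ribosomes of adult striated muscle.

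The stretch around the annotated start is shown for some of the 14 members called in at least 1 comparison and for Rpl7a, which varied most within groups. Rpl21, Rpl23, Rpl23a, Rpl36al, Rps10 and Rps16 were also called and are not printed. The sequences are from RefSeq (GRCm38.p6), cover 40 bases before to 20 bases after the start on the gene's own strand, and have in capitals the longest run of 5 bases or more that begins with a C within 10 bases of the start and continues in C or T. The Rps6 stretch lies on the minus strand at chr4:86857348-86857407 and the Rps27 stretch on the minus strand at chr3:90213629-90213688. Rps26 is on the minus strand at chr10:128626487-128626546 and Rps2 on the plus strand at chr17:24720023-24720082. Rpl7a is on the plus strand at chr2:26910767-26910826, Rpl7l1 on the minus strand at chr17:46782637-46782696 and Rpl3l on the plus strand at chr17:24727786-24727845. Rps4x is on the minus strand at chrX:102189372-102189431 and Rplp0 on the plus strand at chr5:115559427-115559486.
Rps6: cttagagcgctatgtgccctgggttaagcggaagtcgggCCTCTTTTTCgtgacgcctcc
Rps27: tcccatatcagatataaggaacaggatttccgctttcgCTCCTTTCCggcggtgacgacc
Rps26: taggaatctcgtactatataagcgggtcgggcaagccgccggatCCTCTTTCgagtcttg
Rps2: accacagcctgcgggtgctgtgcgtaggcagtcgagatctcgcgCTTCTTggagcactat
Rpl7a: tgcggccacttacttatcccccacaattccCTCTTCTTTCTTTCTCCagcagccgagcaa
Rpl7l1: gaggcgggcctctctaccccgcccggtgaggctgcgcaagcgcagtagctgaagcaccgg
Rpl3l: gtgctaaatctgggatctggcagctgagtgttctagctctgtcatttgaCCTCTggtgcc
Rps4x: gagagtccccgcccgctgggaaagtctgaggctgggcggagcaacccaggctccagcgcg
Rplp0: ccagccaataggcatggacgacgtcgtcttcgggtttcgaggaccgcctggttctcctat
Of the 58 members, 50 had a promoter entry, with 61 promoters in all. A run of at least 8 pyrimidines that begins with C lay within 10 bases of the annotated start in 19 of the 61 promoters (31.1%), in 5 of 75 promoters of mitochondrial ribosomal protein genes (6.67%) and in 2663 of 32851 promoters of all genes (8.11%). With a run of 5 or more within 10 bases of the start the shares were closer, at 50.8%, 41.3% and 30.7% in the same order. A run of 5 or more that begins exactly at the annotated start was found in 14.8% of the members' promoters, in 0% of those of the mitochondrial ribosomal protein genes and in 2.51% of all promoters. Among the printed genes, Rpl7l1, Rps4x and Rplp0 have no run of 5 or more that begins in this window, nor does a second Rpl3l entry that is not printed. The run of the printed Rpl3l entry is 5 bases long, against 10 in Rps6 and 17 in Rpl7a, where the stretch of pyrimidines also continues upstream of the window. These are matches of letters on the gene's own strand and not measured transcript starts.

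Probes above background numbered from 10835 to 11700 per array, out of 25697. Arrays of the same group correlated at 0.978 or above over genes, and no pair was identical. ASO 445236 and HSALR saline arrays shared chip 1, and ASO 190401 and WT saline arrays shared chip 2. The comparisons of ASO 445236 with HSALR saline and of ASO 190401 with WT saline therefore lie within a chip; the other 4 run across chips, where the effects of chip and of group cannot be told apart. The labels do not say that each array is a separate mouse, so p-values measure the spread between arrays. They also give no replicate numbers: those used here count a group's arrays in their order on the chip. A number shared between groups therefore links no arrays. Mouse Acta1 had log2 intensities of 14.88 to 14.97 after ASO 445236, 14.70 to 14.81 after ASO 190401, 14.79 to 15.03 in HSALR saline and 14.88 to 15.02 in WT saline; the transgene is human, so this does not check the labels.

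Of the 64 members, 57 were above background on all 16 arrays and Rpsa, the laminin receptor protein of the small subunit, on 7. The other 6 (Rpl6, Rpl14, Rpl17, Rpl39l, Rplp2 and Rps23) were not above background on any array. Their non-normalized intensities ran from -31.9 to -1.1 for Rpl14 and from -16.4 to 14.4 for Rplp2, so no level of these messages was measured. As a group the 58 members took 4.71% ± 0.28 of the summed intensity of an array after ASO 445236, 4.85% ± 0.15 after ASO 190401, 5.06% ± 0.12 in HSALR saline and 4.97% ± 0.38 in WT saline (SD, n = 4 each). The groups' ranges of this share overlap. Before normalization the median intensity of the members lay between 6185 and 8675 after ASO 445236, 7433 and 9417 after ASO 190401, 5461 and 6521 in HSALR saline and 5569 and 7657 in WT saline. Over all probes the HSALR saline arrays were the dimmest, with an upper quartile of 102.8 to 120.1, against 128.75 or more on each of the other 12 arrays.

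**Figure D1:**
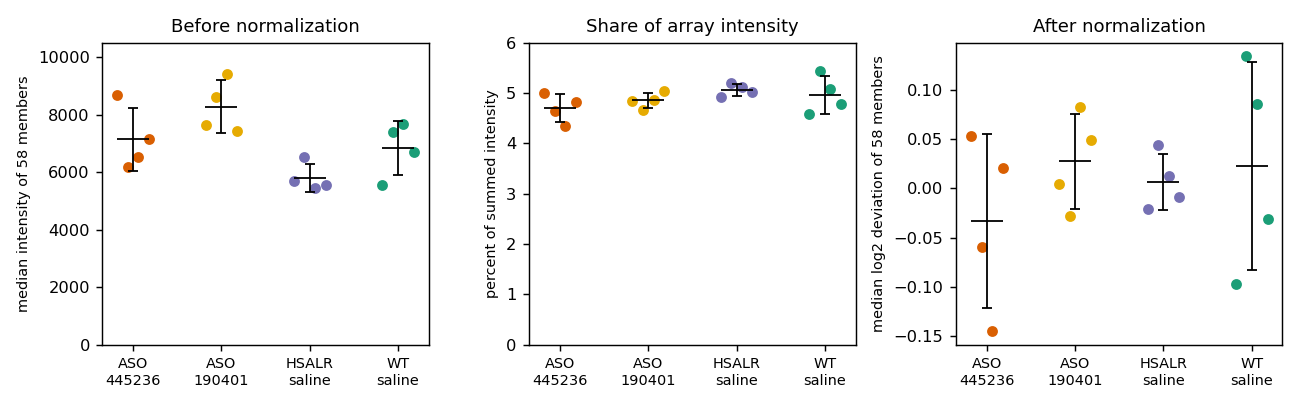
Left, the median intensity of the 58 members on each array before normalization; middle, their percent of the summed intensity of the array; right, the median of their log2 deviations from each gene's mean over all arrays, after normalization. Points are arrays, and bars are the mean and SD of 4 arrays. After normalization the arrays lie between -0.14 and 0.13, and every group spans 0.

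The members were steadier than the average gene, both within and between groups. Their median within-group SD was 0.13 on the log2 scale, against 0.21 for all genes tested, and the median range of their 4 group means was 0.18, against 0.36. Only 4 of 58 (6.9%) had group means more than 0.5 apart (Rpl21, Rpl23, Rpl7a and Rpl22l1), against 29.6% of all genes, and no member reached 1, against 5.96% of all genes. The members were also bright, with a median log2 intensity of 12.71, against 7.64 for all genes, and members were not matched to other genes of the same brightness here. The 95% interval of the difference lay within 0.5 of 0 for 84.5% of members between ASO 445236 and HSALR saline, 89.7% between ASO 190401 and HSALR saline and 86.2% between HSALR saline and WT saline. The same held for 50.9%, 48.5% and 42.2% of all genes. It was 93.1% of members and 52.2% of all genes between ASO 190401 and WT saline, and 79.3% of members and 51.9% of all genes between ASO 445236 and WT saline.

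**Figure D2:**
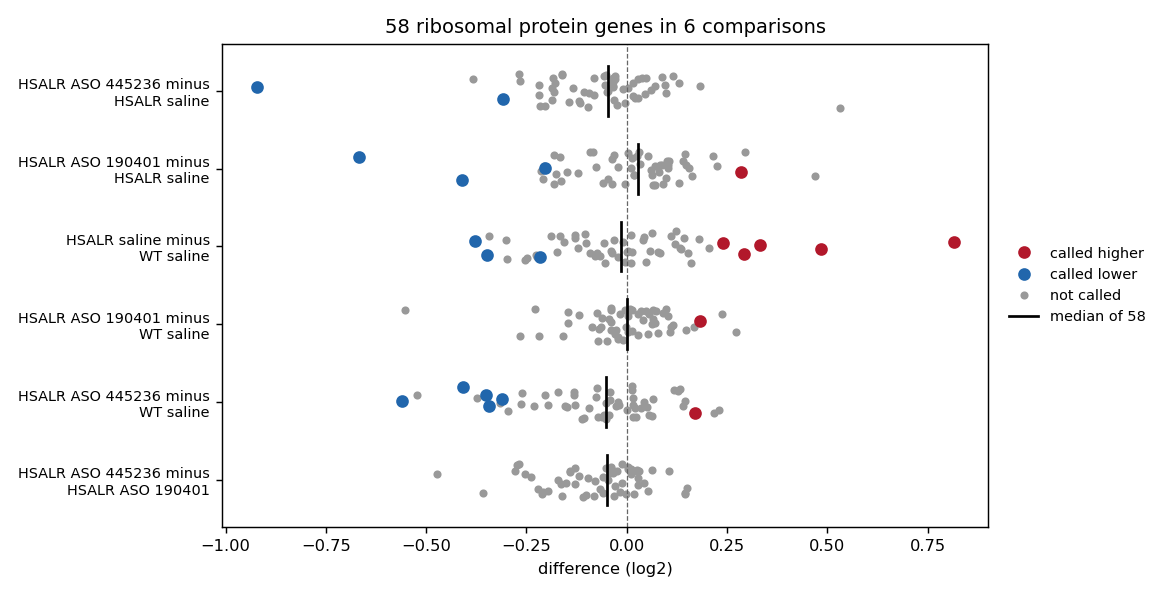
Differences of the 58 members in 6 comparisons, on the log2 scale; each point is a gene, coloured red where it was called higher, blue where called lower and grey where not called, and the black bar is the median. The medians lie between -0.05 and 0.03, and Rpl21 is the farthest point in the first 3 comparisons.

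HSALR saline muscle differed from WT saline muscle in 8 of 58 members (13.8%), a smaller share than the 27.2% called among all genes tested (limma, Benjamini-Hochberg adjusted p under 0.05). Rpl21, Rplp0, Rps26, Rps4x and Rpl36al were higher (5 of 58, against 14.1% of all genes), and Rps2, Rpl7l1 and Rps27 were lower (3 of 58, against 13.1%). Of the 8, 4 belong to each subunit, and the median difference over all 58 was -0.02, the same to 2 decimals as over all genes. In 9 members (15.5%) the arrays of the groups did not overlap, against 26.1% of all genes. Leaving out WT saline replicate 1 raised the count to 13, with 5 higher and 8 lower (28.9% of 8684 genes were then called): Rps25, Rps3a1, Rps16, Rps10, Rpl3 and Rpl22 were added and Rpl36al was lost. When arrays were instead scaled to a common median, 6 members were higher and 2 lower. Of all genes 21.8% were then called, 954 higher and 946 lower. Fibroblast markers moved in the same comparison, with 6 of 10 lower and summed intensities of 13252 to 15040 in HSALR saline, against 20944 to 23457 in WT saline. Adipocyte markers were lower in 5 of 5 tested, with sums of 13831 to 15223 in HSALR saline, against 17970 to 21941 in WT saline. Plin1, Retn and Cd36 were not above background. Of 12 skeletal muscle fibre markers tested, 3 were higher (Myh1 by 0.77, Ttn by 0.37 and Des by 0.25) and 1 was lower (Tnnt3, -0.24). Their sums overlapped, at 334908 to 351197 in HSALR saline and 325813 to 354962 in WT saline. Each sum, here and below, is weighted to its brightest marker. Most of the adipocyte sum was Lpl, with mean log2 intensities of 13.75 in HSALR saline and 14.13 in WT saline. Most of the fibroblast sum was Dcn, with 13.39 and 13.98. In bulk muscle, fewer cells of a type and less RNA per cell cannot be told apart, and the part of these markers in the members' differences was not tested.

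Rpl21, a large subunit protein, had the largest difference among the members. Its log2 intensities were 7.08, 6.96, 6.95 and 7.23 in HSALR saline and 6.47, 6.24, 6.19 and 6.06 in WT saline. All 4 HSALR saline arrays were above all WT arrays. The difference was 0.81 ± 0.15 (SE; 1.76-fold; adjusted p = 0.000526 by limma). After ASO 445236 the values were 6.13, 6.35, 6.06 and 5.996, and after ASO 190401 they were 6.12, 6.66, 6.60 and 6.17. All 8 oligonucleotide arrays lay below the HSALR saline arrays. The difference from HSALR saline was -0.92 ± 0.15 after ASO 445236 (1.89-fold lower; adjusted p = 0.000381) and -0.67 ± 0.15 after ASO 190401 (1.59-fold lower; adjusted p = 0.00541). Both groups' ranges overlapped that of WT saline, with differences from WT of -0.11 (95% interval -0.42 to 0.21) after ASO 445236 and 0.15 (-0.17 to 0.46) after ASO 190401. The signal was low: before normalization it was 59.5, 62.1, 54.5 and 50.7 after ASO 445236, 58.8, 105.3, 106.3 and 52.8 after ASO 190401, 103.3, 90.9, 80.0 and 105.1 in HSALR saline and 69.0, 56.1, 64.5 and 55.4 in WT saline. On that scale 2 of the ASO 190401 arrays reached the HSALR saline arrays. Those 2 arrays were also the brightest of the 16 over all probes, with upper quartiles of 173.2 and 187.4. A second Rpl21 probe gave the same directions with smaller sizes, 0.58 in HSALR saline over WT saline (adjusted p = 0.0314 over all probes kept), -0.49 after ASO 445236 (0.107) and -0.51 after ASO 190401 (0.086), both relative to HSALR saline. The Rpl21 calls all use the same HSALR saline arrays, and they held under every alternative setting tried.

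Rplp0, the protein on which the lateral stalk of the large subunit is built, was also higher in HSALR saline. It had 8.40, 8.96, 8.82 and 8.74 in HSALR saline, against 8.14, 8.30, 8.26 and 8.28 in WT saline. The groups did not overlap, and the difference was 0.48 ± 0.12 (SE; 1.40-fold; adjusted p = 0.00425). Replicate 1 of HSALR saline lay closest to WT. Its stalk partner Rplp1 differed by 0.04 between the same groups (95% interval -0.10 to 0.18), and Rplp2, which pairs with Rplp1 on the stalk, was not measured.

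Rps4x and Rps26 were the small subunit members that were higher. Rps4x, encoded on the X chromosome, had 13.76, 13.78, 13.76 and 13.70 in HSALR saline and 13.33, 13.66, 13.49 and 13.35 in WT saline. Rps26, which lies near the messenger exit side of the small subunit, had 13.28, 13.26, 13.25 and 13.24 in HSALR saline and 12.84, 13.05, 12.91 and 12.90 in WT saline. In both genes the HSALR saline arrays were tightly grouped and above all WT arrays. The differences were 0.29 ± 0.07 for Rps4x (adjusted p = 0.00286) and 0.33 ± 0.07 for Rps26 (adjusted p = 0.00256). Rpl36al, a paralog of Rpl36a, had 13.96, 13.88, 13.76 and 13.76 in HSALR saline and 13.41, 13.61, 13.68 and 13.69 in WT saline. It was 0.24 ± 0.08 higher (adjusted p = 0.0279), a call lost under 6 of 16 alternatives.

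Rps2, a protein at the messenger entry of the small subunit, was lower in HSALR saline. It had 12.26, 12.16, 12.09 and 12.22 in HSALR saline and 12.48, 12.60, 12.60 and 12.54 in WT saline, with no overlap. The difference was -0.38 ± 0.07 (1.30-fold lower; adjusted p = 0.000824). Rpl7l1, a paralog of Rpl7 known in other cells as a ribosome assembly factor, had 9.05, 8.93, 8.98 and 8.98 in HSALR saline, against 9.40, 9.31, 9.29 and 9.33 in WT saline. Again no array overlapped, and the difference was -0.35 ± 0.08 (adjusted p = 0.00305). Rps27, a zinc-binding small subunit protein, had 13.41, 13.51, 13.46 and 13.32 in HSALR saline and 13.59, 13.72, 13.75 and 13.52 in WT saline. The groups did not overlap, though their nearest arrays almost met. The difference of -0.22 ± 0.07 (adjusted p = 0.0286) was lost under 7 of 16 alternatives, and the calls of Rplp0, Rps4x, Rps26, Rps2 and Rpl7l1 were lost under none.

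**Figure D3:**
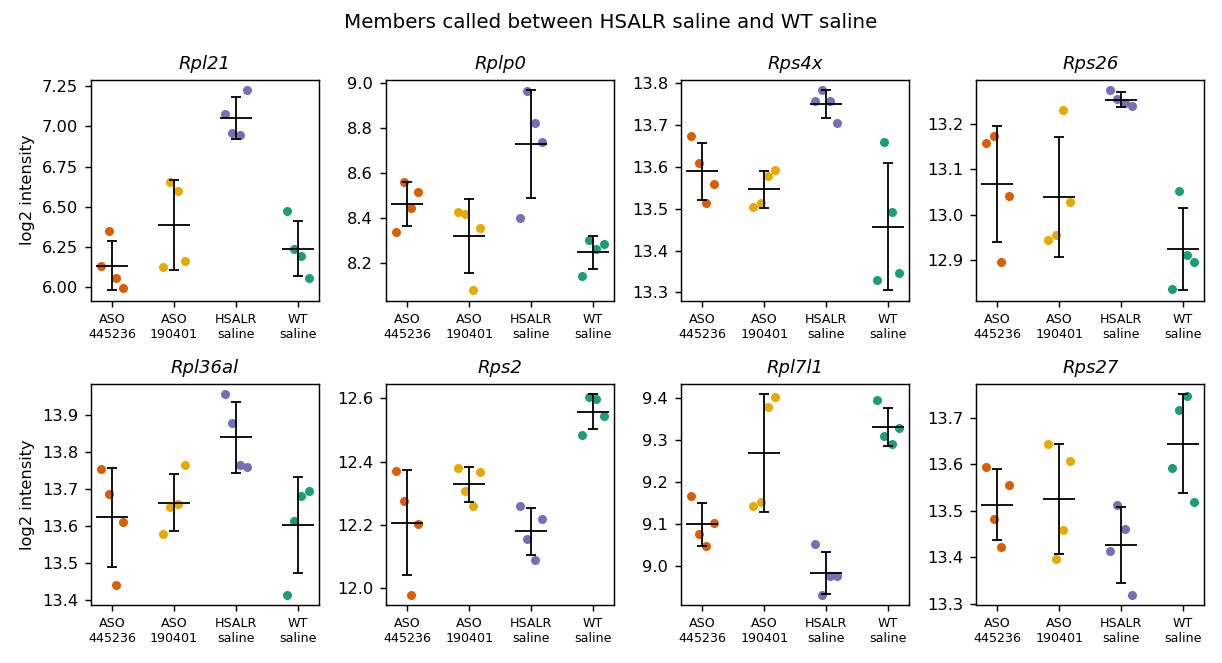
Log2 intensities of the 8 members called between HSALR saline and WT saline, in all 4 groups; points are arrays, and bars are the mean and SD of 4 arrays, with a separate vertical range for each gene. Rpl21, Rps26 and Rps4x are highest in HSALR saline, Rps2 is highest in WT saline, and Rpl7l1 after ASO 190401 reaches from 9.14 to 9.40.

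After ASO 445236, 2 of 58 members (3.45%) differed from HSALR saline, both lower, against 13.5% of all genes tested (6.73% lower and 6.81% higher). They were Rpl21, described above, and Rpl23a, a large subunit protein at the exit of the peptide tunnel. This comparison lies within chip 1. Rpl23a had 12.90, 12.80, 12.61 and 12.74 after ASO 445236 and 13.02, 13.09, 13.10 and 13.08 in HSALR saline. The groups did not overlap, and replicate 3 was the lowest. The difference was -0.31 ± 0.08 (1.24-fold lower; adjusted p = 0.018); without ASO 445236 replicate 3 it was -0.26 (adjusted p = 0.0629), and with median scaling -0.15 (adjusted p = 0.352). Arrays of the 2 groups did not overlap in 6 members (10.3%), against 19.6% of all genes: Rpl21, Rpl23a, Rpl36al, Rps26 and Rps4x below HSALR saline and Rpl22l1 above it. Scaling to a common median gave 3 members higher and 2 lower. Of all genes 20.5% were then called, 1529 higher and 257 lower. A fit on chip 1 alone gave 1 member higher and 3 lower, and its share of all genes is not given here. Median scaling moved the median of all genes to 0.16 in this comparison, to 0.18 for ASO 190401 over HSALR saline, to 0.18 for ASO 190401 over WT saline and to 0.15 for ASO 445236 over WT saline. The members' medians under that scaling were 0.05, 0.18, 0.21 and 0.11 in the same order. Myeloid markers were higher in 7 of 11 after ASO 445236, with summed intensities of 2667 to 4269, against 961 to 1879 in HSALR saline; Itgam and Fcer1g were not above background. Adipocyte markers were higher in 3 of 5, with sums of 14880 to 18658 after ASO 445236, against 13831 to 15223 in HSALR saline. Fibroblast markers were higher in 3 of 10, with 16080 to 19695 after ASO 445236, against 13252 to 15040 in HSALR saline. The part of these markers in the members' differences was not tested.

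After ASO 190401, 4 of 58 members (6.9%) differed from HSALR saline, against 15.8% of all genes tested, across the 2 chips. Rpl21, Rplp0 and Rps4x were lower (7.71% of all genes were) and Rpl7l1 was higher (8.09% of all genes were). These 4 are among the 8 called between HSALR saline and WT saline; both comparisons use the same HSALR saline arrays. Rplp0 had 8.43, 8.42, 8.08 and 8.36 after ASO 190401 and differed from HSALR saline by -0.41 ± 0.12 (adjusted p = 0.0214), with overlap at HSALR saline replicate 1. This call was lost under 5 of 16 alternatives, among them median scaling (-0.19, adjusted p = 0.253). Rps4x had 13.50, 13.51, 13.58 and 13.59 after ASO 190401, all below the HSALR saline arrays. Its difference of -0.20 ± 0.07 (adjusted p = 0.0446) was lost under 12 of 16 alternatives. Rpl7l1 had 9.14, 9.15, 9.38 and 9.40 after ASO 190401, in 2 pairs, all above HSALR saline. The difference was 0.29 ± 0.08 (adjusted p = 0.0202) and was lost without ASO 190401 replicate 3, without replicate 4 or without HSALR saline replicate 2. The count of members called was 1 when HSALR saline replicate 2 was left out. It was 2 when replicate 3 or replicate 4 of either group was left out. The shares of all genes called without these arrays are not given here, so these counts cannot be set against them. Under scaling to a common median the members' count was 10 (9 higher and 1 lower), while 25.6% of all genes were called. In 14 members (24.1%) the arrays of the groups did not overlap, close to the 22.3% among all genes; Rpl10, Rpl29, Rpl34, Rps9, Rps26 and Rpl23a lay below HSALR saline and Rpl3, Rpl22l1, Rps3a1, Rps10 and Rps24 above it without being called. Fibroblast markers were lower in 2 of 10 here, with sums of 13773 to 15280 after ASO 190401, against 13252 to 15040 in HSALR saline, and their part was not tested.

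After ASO 445236, 6 of 58 members (10.3%) differed from WT saline, near the 11.3% among all genes, across the 2 chips. Rps2, Rps6, Rps16, Rps10 and Rpl23 were lower (5.04% of all genes were) and Rpl3l was higher (6.25% of all genes were). Rps2 had 12.37, 12.28, 11.98 and 12.20 after ASO 445236, all below the WT arrays given above, with a difference of -0.35 ± 0.07 (SE; adjusted p = 0.00521). After ASO 190401 Rps2 had 12.38, 12.31, 12.26 and 12.37, also below all WT arrays, with a difference of -0.23 ± 0.07 that was not called (adjusted p = 0.0529). After normalization all 12 HSALR arrays thus had less Rps2 signal than any WT array; the 3 comparisons share the WT arrays. Before normalization they did not: the intensities were 6065.5, 4697.9, 4302.3 and 4931.3 after ASO 445236, 5990.1, 6368.5, 6394.4 and 5325.5 after ASO 190401, 4252.2, 3954.7, 3426.1 and 3809.5 in HSALR saline and 4799.9, 5801.8, 6223.6 and 5895.9 in WT saline. On that scale the HSALR saline arrays alone were all below WT.

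Rps6, the small subunit protein phosphorylated by S6 kinases, had 11.62, 11.44, 11.11 and 11.49 after ASO 445236, 11.58, 11.59, 11.35 and 11.70 after ASO 190401, 11.62, 11.83, 11.49 and 11.59 in HSALR saline and 11.83, 11.87, 11.76 and 11.82 in WT saline. Both oligonucleotide groups lay below all WT arrays. The difference from WT was -0.41 ± 0.10 after ASO 445236 (1.33-fold lower; adjusted p = 0.0126) and -0.27 ± 0.10 after ASO 190401 (adjusted p = 0.0968). The Rps2 and Rps6 calls after ASO 445236 were lost with median scaling, where the differences were -0.12 (adjusted p = 0.403) and -0.17 (adjusted p = 0.266), while the median of all genes was 0.15. Rps16 and Rps10 had differences of -0.34 ± 0.11 (adjusted p = 0.0427) and -0.31 ± 0.10 (adjusted p = 0.0408); their arrays overlapped with WT, and the calls were lost under 9 and 8 of 16 alternatives. Myeloid markers were higher in 4 of 11 in this comparison, endothelial markers lower in 5 of 9, with sums of 2889 to 6286 after ASO 445236, against 4691 to 8490 in WT saline, and their part was not tested. The members' count fell to 3 without ASO 445236 replicate 2 or without replicate 4. The shares of all genes called without these arrays are not given here, so this fall cannot be set against them. Median scaling gave 6 members higher and 1 lower, while 18.6% of all genes were called, 1455 higher and 164 lower.

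Rpl23, a large subunit protein known to bind Mdm2, shows how far a member can depend on its probe. The brightest probe had 13.65, 14.44, 13.96 and 14.01 after ASO 445236 and 14.83, 14.31, 14.46 and 14.70 in WT saline. Replicate 2 of ASO 445236 lay inside the WT range. The difference was -0.56 ± 0.13 (adjusted p = 0.0104). A second probe, also above background on all 16 arrays, gave -0.01 (adjusted p = 0.971 over all probes kept) and another gave 0.03 (0.884). With the mean of the probes the difference was -0.18 (adjusted p = 0.154). Among the other members with several probes above background, those of Rps3, Rps9, Rpl31 and Rpl38 differed in sign between HSALR saline and WT saline. The brightest and the other probe gave 0.01 and -0.14 for Rps3, 0.11 and -0.06 for Rps9, -0.06 and 0.03 for Rpl31, and 0.04 and -0.19 for Rpl38, and none of these was called.

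After ASO 190401, 1 of 58 members (1.72%) differed from WT saline, against 10.4% of all genes tested (5.09% higher and 5.31% lower), within chip 2. It was Rpl3l, the striated muscle paralog of Rpl3. Rpl3l had 14.93, 14.93, 14.89 and 14.90 after ASO 190401, 14.89, 14.93, 14.83 and 14.94 after ASO 445236, 14.85, 14.93, 14.83 and 14.77 in HSALR saline and 14.73, 14.64, 14.77 and 14.77 in WT saline. Every oligonucleotide array was above every WT array, and in HSALR saline 1 array came down to the WT range. Differences from WT were 0.18 ± 0.05 after ASO 190401 (1.13-fold; adjusted p = 0.0297), 0.17 ± 0.05 after ASO 445236 (adjusted p = 0.0412) and 0.12 ± 0.05 in HSALR saline (adjusted p = 0.0918). The call after ASO 190401 was lost in a fit on chip 2 alone (0.18, adjusted p = 0.0672) and under 7 other alternatives of 17. The call after ASO 445236 was lost under 8 of 16. The count of called members was 0 without ASO 190401 replicate 1, 2 or 4 or WT saline replicate 2. It was 2 without WT saline replicate 1 (Rpl3l and Rps2) or replicate 4 (Rpl3l and Rps14). The shares of all genes called without these arrays are not given here, so these counts cannot be set against them. With median scaling 8 members were called, all higher, and 24.0% of all genes. Fibroblast markers were lower in 8 of 10 in this comparison, with sums of 13773 to 15280 after ASO 190401, against 20944 to 23457 in WT saline. Adipocyte markers were lower in 4 of 5, with 13344 to 17717 after ASO 190401, against 17970 to 21941 in WT saline. Endothelial markers were lower in 3 of 9, with 3476 to 5596 after ASO 190401, against 4691 to 8490 in WT saline, and Schwann cell markers in 2 of 3, with 712 to 1103, against 1358 to 2167. The part of these markers was not tested.

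No member was called between ASO 445236 and ASO 190401, where limma called 3.01% of all genes (1.95% higher and 1.07% lower). At an unadjusted p under 0.05 there were 7 members (12.1%), against 17.4% of all genes, and the lowest adjusted p was 0.0575. The arrays of the 2 groups did not overlap in Rpl10, Rpl4, Rps10 and Rps24 (6.9%, against 9.89% of all genes). The interval of the difference lay within 0.5 of 0 for 86.2% of members and 57.0% of all genes. The members' median difference was -0.05, against -0.02 over all genes, and 41 of 58 were lower after ASO 445236. The share of all genes that were lower is not given here, and the comparison runs across chips. By array, the members' median deviation ran from -0.14 to 0.05 after ASO 445236 and from -0.03 to 0.08 after ASO 190401, with overlap. Without ASO 445236 replicate 2, Rpl23 was called, by its brightest probe (-0.62, adjusted p = 0.00758). The share of all genes called without that array is not given here.

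Of the 5 paralog genes, Rpl3l, Rpl7l1 and Rpl36al were called in some comparison, and Rpl22l1 and Rps27l in none. Rpl22l1, which can stand in for Rpl22 in the ribosome, had 7.29, 7.14, 7.30 and 7.90 after ASO 445236, 7.72, 7.23, 7.02 and 7.41 after ASO 190401, 6.80, 6.94, 6.76 and 7.005 in HSALR saline and 6.63, 7.74, 7.24 and 7.09 in WT saline. Its oligonucleotide arrays were all above the HSALR saline arrays, and WT saline spanned both. The differences from HSALR saline were 0.53 ± 0.21 after ASO 445236 (adjusted p = 0.0994) and 0.47 ± 0.21 after ASO 190401 (adjusted p = 0.139), neither called. Rpl22 differed by -0.20 (95% interval -0.44 to 0.03) after ASO 445236 and by -0.21 (-0.44 to 0.03) after ASO 190401, with overlapping arrays.

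Rpl3 had a difference of -0.23 ± 0.08 in HSALR saline over WT saline that missed the threshold (adjusted p = 0.0506). It had 11.55, 11.58, 11.57 and 11.63 in HSALR saline and 11.63, 11.90, 11.91 and 11.80 in WT saline. WT saline replicate 1 was the array nearest the HSALR saline values. Rps27l, a paralog of Rps27 known as a p53 target, was -0.17 (95% interval -0.34 to 0.01) between the same groups, and Rpl36a was -0.04 (-0.25 to 0.17). Rpl39 and Rpl10, whose paralogs Rpl39l and Rpl10l are known from testis, were called in no comparison. Rpl5, which forms a particle with the 5S ribosomal RNA, had differences of -0.08 to 0.07 over the 6 comparisons, none called.

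**Figure D4:**
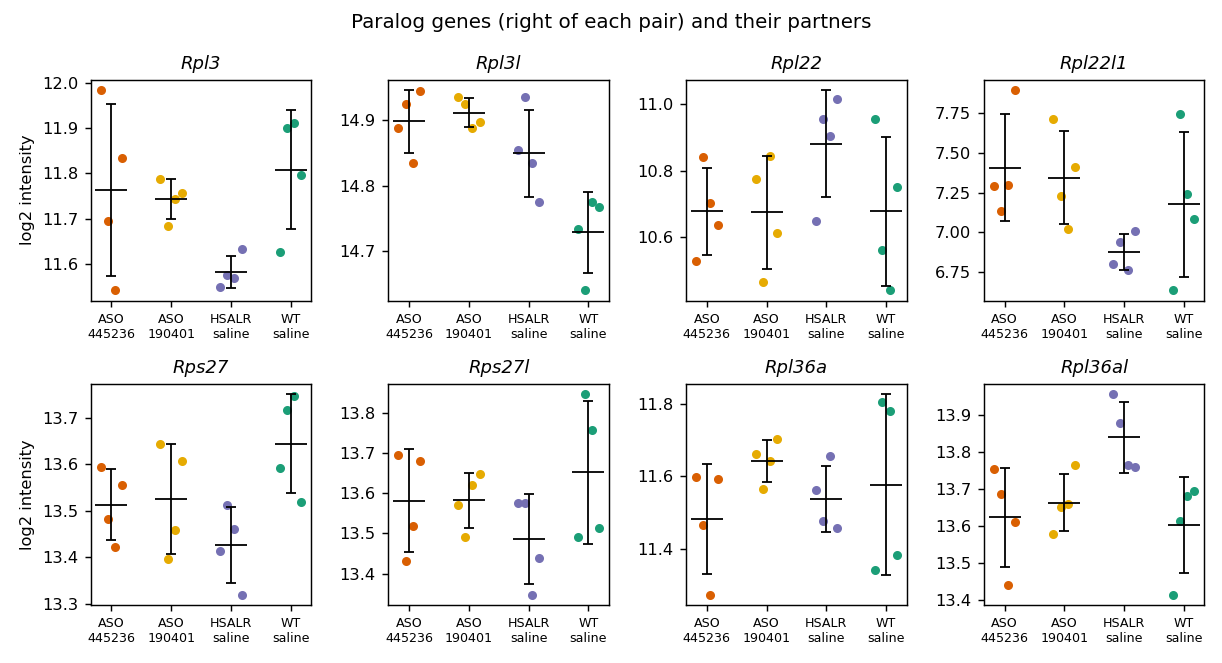
Log2 intensities of Rpl3 and Rpl3l, Rpl22 and Rpl22l1, Rps27 and Rps27l, and Rpl36a and Rpl36al in all 4 groups; points are arrays, and bars are the mean and SD of 4 arrays, with a separate vertical range for each gene. Rpl3l is lowest in WT saline and Rpl22l1 lowest in HSALR saline by their means, and levels are not comparable between probes.

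The widest variation of any member lay within groups. Rpl7a, a large subunit protein on the surface of the ribosome, had 10.52, 10.35, 8.86 and 10.34 after ASO 445236, 10.50, 10.42, 8.29 and 10.73 after ASO 190401, 10.12, 10.54, 10.30 and 9.82 in HSALR saline and 10.71, 10.82, 10.64 and 9.99 in WT saline. Replicate 3 of ASO 445236 differed by -1.55 from the mean of the other 3 arrays of its group, and replicate 3 of ASO 190401 by -2.27. Rpl24, which bridges the subunits, had 12.88, 12.87, 11.78 and 12.72 after ASO 445236 and 12.76, 12.76, 12.16 and 12.96 after ASO 190401, with the same 2 arrays lowest. Rps7, a small subunit protein, had 12.64 and 13.19 on these arrays, and Rpl27 had 12.52 and 13.08. In both genes these were again the lowest arrays of their groups.

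Over the 16 arrays, deviations of these 4 members from the group mean went together, with Pearson r from 0.76 to 0.91 over pairs. This is a description only: the points share arrays, and the genes were named after their values were seen. All 4 were lowest in their groups on the same 2 arrays, so a high r is built into the choice. Rpl22l1, with a within-group SD of 0.33, varied more than Rps7 (0.22) and Rpl27 (0.20) and was not among them. Ranked by the smaller of the 2 shortfalls, Rpl7a was first of 8725 genes, followed by Xlr4a, Gm5643, H2-Q7 and Rpl24. Rpl7a and Rpl24 were the only members at least 0.5 lower on both arrays, among 18 genes that were. The 2 arrays did not resemble each other as a whole: over all genes their shortfalls correlated at -0.12, and the members' median deviation was -0.13 on the ASO 445236 array and 0.05 on the ASO 190401 array. They lie on different chips, at positions 7 and 4, and share the number 3 only through the order of counting.

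Without these 2 arrays, an alternative chosen after seeing the data, the SE of Rpl7a between ASO 445236 and HSALR saline was 0.18, against 0.42 with them, and its difference was 0.21 (adjusted p = 0.512), against -0.18. None of the 4 genes was then called in any comparison. The shares of all genes called without both arrays are not given here, so the counts that follow cannot be set against them. The counts of called members without both arrays were 2, 2, 10, 1, 4 and 0 for ASO 445236 over HSALR saline, ASO 190401 over HSALR saline, HSALR saline over WT saline, ASO 190401 over WT saline, ASO 445236 over WT saline and ASO 445236 over ASO 190401. After ASO 445236 the 2 called against HSALR saline were then Rpl21, lower, and Rpl3, higher (0.26, adjusted p = 0.0499); after ASO 190401 they were Rpl21 and Rps26 (-0.28, adjusted p = 0.00629), both lower.

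**Figure D5:**
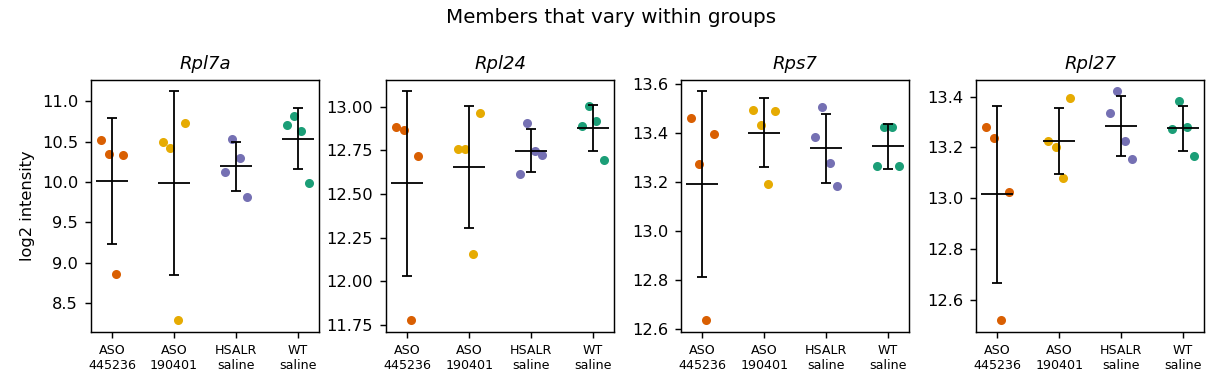
Log2 intensities of Rpl7a, Rpl24, Rps7 and Rpl27 in all 4 groups; points are arrays in the order of their replicate numbers, and bars are the mean and SD of 4 arrays, with a separate vertical range for each gene. The third point is the lowest of its group in each gene after ASO 445236 and after ASO 190401, at 8.86 and 8.29 for Rpl7a.

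Genes that build or use the ribosome were read beside the members. Here and in the paragraphs that follow, differences over WT saline and differences from HSALR saline use the same HSALR saline arrays. Opposite signs are thus not independent, and a high or low HSALR saline mean gives them by itself. Of the comparisons that use these arrays, only that of ASO 445236 with HSALR saline lies within a chip. In HSALR saline over WT saline, 14.1% of all genes tested were called higher and 13.1% lower, and the counts that follow are to be read against these shares. Of 40 ribosome assembly factors tested, 3 were higher and 4 lower in HSALR saline than in WT saline. Fibrillarin (Fbl), which methylates ribosomal RNA, was 0.61 ± 0.09 higher in HSALR saline than in WT saline (adjusted p = 3.77e-05), and its differences from HSALR saline were -0.60 ± 0.09 after ASO 445236 and -0.52 ± 0.09 after ASO 190401. Rrp12, an export factor of ribosomal subunits, was 0.70 ± 0.10 higher in HSALR saline than in WT saline (adjusted p = 6.12e-05). Sbds, needed to release Eif6 from the large subunit, was lower, with a difference of -0.51 ± 0.09 (adjusted p = 0.00029).

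Among 9 RNA polymerase I genes tested, Polr1d, Ubtf and Polr1a were higher in HSALR saline than in WT saline, by 0.48, 0.42 and 0.44, and none was lower. They were also higher after ASO 445236 than in WT saline, by 0.33, 0.50 and 0.42, where 6.25% of all genes were higher. After ASO 190401, 2 of the 9 were higher than in WT saline, where 5.09% of all genes were, and none was lower. Of 8 elongation factors, Eef1g was 0.40 ± 0.06 higher in HSALR saline than in WT saline (adjusted p = 8.77e-05) and had a difference of -0.23 from HSALR saline after each oligonucleotide. Eef1a2, the elongation factor form of adult muscle, was 0.23 above WT saline in each of the 3 HSALR groups.

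Among 29 initiation factors, 3 were higher and 5 lower in HSALR saline than in WT saline, again beside 14.1% and 13.1% of all genes. Eif3h, a subunit of the initiation factor eIF3 and one of the 5, was above background on all 4 WT arrays and on none of the 12 HSALR arrays. It passed the filter on dim probes through the WT arrays alone, so the filter favoured its place among the 5. Only a bound on its level was had in HSALR muscle. Eif2s2, a subunit of eIF2, had a difference of -0.68 ± 0.07 in HSALR saline over WT saline (adjusted p = 9.34e-07) and was higher by 0.36 after ASO 445236 and 0.39 after ASO 190401, each relative to HSALR saline. In the mTOR and MYC list of 18 tested genes, 2 were higher (Mtor by 0.55 and Ddit4 by 1.66) and 6 lower in HSALR saline than in WT saline, where 13.1% of all genes were lower. The 6 were Rheb, Ddit4l, Deptor, Rictor, Akt2 and Max, with differences of -0.33, -0.62, -0.46, -0.40, -0.50 and -0.24. Akt2 was above background on only 2 of the 4 HSALR saline arrays, so its level there was near the limit of detection. Rheb, Rictor and Akt2 are known to promote mTOR signalling or to belong to its complexes, while Ddit4l and Deptor are known to inhibit it. Of the 4 S6 kinase genes tested, 2 were higher in HSALR saline than in WT saline, beside 14.1% of all genes. Rps6ka3, 1 of the 2, was 1.48 ± 0.14 higher (adjusted p = 2.72e-07 by limma). It differed from HSALR saline by -1.10 after ASO 445236 and -1.30 after ASO 190401.

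Other messages known to carry the pyrimidine tract went in both directions. Of 8 tested, Naca was 0.39 higher in HSALR saline than in WT saline, while Nap1l1 and Vim were lower, with differences of -0.58 and -0.87. Vim is also made by fibroblasts, whose markers were lower in the same comparison, and their part in its difference was not tested. Fau, whose product includes a ribosomal protein fused to a ubiquitin-like protein, was called in no comparison, with differences between -0.18 and 0.09. Mitochondrial ribosomal protein genes, which serve a separate ribosome, had 70 members tested, and 9 were higher and 5 lower in HSALR saline than in WT saline, against 14.1% and 13.1% of all genes. After ASO 445236, 1 was higher and 10 lower than in HSALR saline, where 6.81% and 6.73% of all genes were. After ASO 190401, 5 were higher and 9 lower than in HSALR saline, against 8.09% and 7.71% of all genes. Mrps34 and Mrps12 were 0.46 and 0.63 higher in HSALR saline than in WT saline; their differences from HSALR saline were -0.57 and -0.43 after ASO 445236 and -0.55 and -0.42 after ASO 190401.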

How the data were processed

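The values used are the authors' deposited non-normalized bead array intensities and detection p-values, of which 6907 to 7499 intensities per array are negative. The processing notes of the submitters name affy, without a role. From the deposited intensity table, limma 3.58.1 in R 4.3.3 corrected background by normexp with detection p (offset 16) and quantile-normalized log2 intensities over 16 arrays. The filter on dim probes asked for a detection p under 0.05 on 4 or more arrays and left 12364 probes, and the brightest probe stood for each gene (8725 genes). There were 60 missing cells on 2 arrays, none in a member's probe. Group means were fitted with lmFit and eBayes with an intensity trend. Adjusted p is Benjamini-Hochberg over all 8725 genes, two-sided, at 0.05. Differences are on the log2 scale, ± their SE, and log2 levels of different probes are not comparable. The number of arrays limits the precision. Genes on the array were named from the platform annotation.

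The members and lists were chosen with earlier results of these data known. Named members are those called in each comparison (up to 6 each way), paralog genes and partners, stalk genes, Rps6 and Rpl5. The brightest and dimmest members and those whose probes disagree are also named, except Rps20. That gene is among the brightest, was called in no comparison and is not described. Rpl7, Rpl11, Rpl10l and Rps4l were not analysed here. Members that vary within groups and genes of the lists were named after their values were seen. Rps3a1 was counted as a member under the symbol rule, and Rps23rg1 and Rps19bp1 were not. The authors' deposited processed matrix of intensity, a fit per chip, other scaling, filters and each array left out served as alternatives. The analysis code was tested on simulated data.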

Additional observations from a re-analysis of the deposited data

Results flagged for a closer look

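In 15 of 232 sets of 4 arrays (6.47%, where chance gives about 1 in 20) the highest or lowest array of a member lay far from the other 3 by Dixon's criterion. After ASO 445236, Rpl7a was 8.86 on replicate 3 (others 10.34 to 10.52), Rpl24 was 11.78 on replicate 3 (12.72 to 12.88) and Rpl34 was 12.51 on replicate 2 (12.71 to 12.73). After ASO 190401, Rpl7a was 8.29 on replicate 3 (10.42 to 10.73), Rps13 was 12.93 on replicate 3 (12.55 to 12.58), Rpl12 was 12.66 on replicate 1 (12.77 to 12.78) and Rpl39 was 13.61 on replicate 2 (13.73 to 13.76). In HSALR saline, replicate 2 had Rpl10 at 14.36 (14.18 to 14.21), Rpl9 at 14.24 (14.05 to 14.07) and Rpl41 at 14.86 (14.92 to 14.93), replicate 4 had Rpl37 at 14.64 (14.55 to 14.56) and replicate 1 had Rps24 at 14.39 (14.49). In WT saline, Rpl19 was 10.17 on replicate 2 (9.86 to 9.89), Rps15a was 6.76 on replicate 2 (7.12 to 7.18) and Rpl38 was 14.44 on replicate 1 (14.73 to 14.79). Apart from Rpl7a and Rpl24, each of these gaps was under 0.5 on the log2 scale.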

How the results depend on the processing

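Of 21 calls of members, 8 held under every alternative tried (Rpl21 in 3 comparisons and Rplp0, Rps4x, Rps26, Rps2 and Rpl7l1 between HSALR saline and WT saline) and none changed sign; over 339 pairs of a call and an alternative, 268 were kept and 71 lost. Counts of called members under other settings were as follows, where they moved by over 1.5 times. For ASO 445236 over HSALR saline (2), median scaling gave 5 and a fit on chip 1 alone 4. For ASO 190401 over HSALR saline (4), median scaling gave 10 and leaving out both replicate 3 arrays, chosen after seeing the data, 2. For ASO 190401 over WT saline (1), median scaling gave 8, no intensity trend 0, detection on all 16 arrays 3, no detection filter 0, chip position as a covariate 2 and a fit on chip 2 alone 0. For ASO 445236 over WT saline (6), no intensity trend and no detection filter gave 3 each. For ASO 445236 over ASO 190401 (0), median scaling gave 1. Leaving out each array in turn gave 2 to 3, 1 to 3, 0 to 2, 3 to 8 and 0 to 1 in these 5 comparisons and 6 to 13 for HSALR saline over WT saline. The cause was not tested. Under median scaling 20.5% of all genes were called for ASO 445236 and 25.6% for ASO 190401, each over HSALR saline. The share was 24.0% for ASO 190401 over WT saline and 2.15% for ASO 445236 over ASO 190401. For most other settings the shares of all genes are not given here, so those counts cannot be set against them. Quantile normalization sets every array to the same distribution, so a shift of all messages would not be seen. No paired analysis was possible because the arrays carry no replicate numbers in the labels. Of the probes of 6 members, no signal rose above background.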
